A study of Bos taurus with 38 samples.

Results

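Residual feed intake (RFI) is the feed a cow ate minus the feed predicted for its needs, so a high-RFI cow is a less feed-efficient cow. The comparison described here set the high-RFI cow against the low-RFI cow inside each of the 4 complete selection blocks of the Holsteins. The study formed 5 blocks, each meant to hold a high-ranked and a low-ranked cow of both breeds that were alike in lactation stage and parity group, so the Holstein pairs here share their blocks with Jersey pairs. These were cows 9 and 11 in block 1, cows 2 and 6 in block 2, cows 15 and 16 in block 3 and cows 7 and 1 in block 4, with the high-RFI cow named first and the numbers as in the sample titles. The blocks thus hold 8 of the 19 cows and 16 of the 38 liver libraries of the study. Cow 19, a low-RFI Holstein, had no partner and stayed out of the paired fit, but its values are given beside the results they touch.

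All cows were lactating Holsteins from a research herd, biopsied in the liver once on a low-concentrate control diet (C) and once on a high-concentrate diet (HC), in a crossover. The high-RFI group is labelled as low in feed efficiency, and the low-RFI group as high. The RFI group column of the study's animal table runs the other way, with High for the cow of lower RFI value in each of the 4 pairs. Directions here follow the RFI values and the efficiency labels, and under that column's wording every sign would turn. Block mates had the same parity (2 in block 1, 3 in block 2, 1 in block 3) except in block 4, where the high-RFI cow was of parity 2 and the low-RFI cow of parity 3. The RFI values of the cows in block 4 also lay close together. The RFI value of the high-RFI cow of block 3 was below that of the low-RFI cow of block 4. Across blocks the groups therefore overlapped in RFI value, and high and low hold within each block only. Block mates received the diets in opposite order in 4 of 4 blocks, and the high-RFI cow had HC first in 3 of these 4. Within a diet the mates were therefore sampled in different periods, whereas the sum of both libraries of a cow held each diet and each period once.

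The liver makes glucose from absorbed nutrients, makes ketone bodies, forms bile acids from cholesterol and disposes of ammonia as urea. It also carries resident macrophages and lymphocytes. In a lactating cow the making of glucose and urea scales with feed intake. Hepatocytes form most of the tissue, so a transcript of a rarer cell type can differ between biopsies through the number of those cells or through the RNA in each, and bulk counts cannot tell these apart. No gene of the hepatocyte marker list could be paired with an identifier, so the tissue label was not checked by those markers (0 of 10 paired).

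Genes received 17472750 to 20752683 read pairs in each library, and 36351245 to 40784351 in the sum for each cow. The median per cow was 38198400 for high-RFI and 40009571 for low-RFI cows. Read pairs outside annotated genes made up 20.1% to 25.1% of a library. Levels below are CPM, in which the read pairs on genes of each cow (2 libraries summed) were scaled to 1 common total with TMM factors. A gene was kept when 4 or more of the 8 cows reached 1 CPM, which left 11985 of 24616 genes and 99.9% of the read pairs. The labels name no batch, and each cow is 1 replicate.

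One cow of the blocks had libraries that went against its labels. Across all 38 libraries, 58 genes were on in some and off in others, with a gap of at least 1.5 on the log2 scale between the levels. For 7 of the 8 cows the C and HC libraries were alike in 54 to 58 of these genes, and at most in 52 with any other cow. The libraries labelled cow 15, the high-RFI cow of block 3, were alike in 50. The C library labelled cow 15 matched the HC library labelled Jersey cow 14 in 58 of 58, and the HC library labelled cow 15 matched the C library labelled cow 14 in 58 of 58. On a score over the 100 genes that best separated the breeds in 15 other cows, scaled to 1 for the Holstein and -1 for the Jersey mean, those cows scored 0.77 to 1.27 and -1.17 to -0.78. The genes were chosen on those cows, so their ranges are narrowed by the choice. Jersey cows 10 and 17, also left out of the choice, scored -0.82 and -1.12 on C and -0.66 and -0.41 on HC. The C library labelled cow 15 scored -0.50, on the Jersey side but outside the range of those Jerseys, and its HC library 0.89. The libraries labelled Jersey cow 14 scored 0.61 on C and 0.08 on HC, outside the ranges of both breeds. Labels were used as given, the values of cow 15 below are the sum of both libraries so labelled, and results are also given without block 3.

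The question put to the blocks was which liver genes differed with RFI when the cows selected together were compared. At an adjusted p under 0.05 (Benjamini-Hochberg, edgeR quasi-likelihood test with the block in the model), 3 of 11985 genes passed, or 0.025%. Of these, 1 was higher and 2 were lower in the high-RFI cows. At an unadjusted p under 0.05 there were 671 genes, 5.6% of those tested, of which 371 were higher (3.1%) and 300 lower (2.5%). The model leaves 3 residual degrees of freedom, and an exact two-sided sign-flip test over 4 blocks cannot go below p = 0.125, so single genes were not tested that way.

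The gene with the largest fold among the 3 was REC8 (ENSBTAG00000002705), the meiosis-specific kleisin subunit of the cohesin ring that holds sister chromatids together. Its CPM, high-RFI against low-RFI cow, was 0.330 against 62.5 in block 1, 0.486 against 31.6 in block 2, 0.105 against 11.9 in block 3 and 0.666 against 34.1 in block 4. Every high-RFI cow stood below 1 CPM and each of their low-RFI mates above 10, so the groups did not overlap (log2 fold change -6.42, SE 0.29, adjusted p = 0.00220, -6.38 without block 3). REC8 met the filter on low counts only through the 4 low-RFI cows. That these cows lay above 1 CPM was thus set by the filter. In read pairs, the high-RFI cows had 13, 19, 4 and 24 against 2594, 1245, 451 and 1356 in blocks 1 to 4. The unpaired low-RFI cow 19 had 10 read pairs (0.248 CPM), which is the level of the high-RFI cows. With cow 19 added and parity in place of the block, the log2 fold change was -6.55 and the adjusted p in edgeR 0.172. With each of the 4 blocks left out in turn REC8 passed every time, from -6.77 to -5.99.

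Among the lower genes the other was ENSBTAG00000038748, for which the files and lists used here give no name. Its CPM was 0.812 against 5.85 in block 1, 1.20 against 5.56 in block 2, 1.23 against 9.53 in block 3 and 0.971 against 6.04 in block 4. Low-RFI cows lay above 5 CPM and high-RFI cows below 2 (log2 fold change -2.66, SE 0.17, adjusted p = 0.00951, -2.55 without block 3), whereas cow 19, of the low-RFI group, was at 0.347 CPM, under every paired cow. The higher gene was ENSBTAG00000043553, also unnamed, with 36.7 against 11 in block 1, 35.7 against 12.1 in block 2, 18.9 against 6.65 in block 3 and 32.2 against 13.8 in block 4. Here the high-RFI cows lay between 18.9 and 36.7 CPM and their mates between 6.65 and 13.8 CPM (log2 fold change 1.5, SE 0.10, adjusted p = 0.0101, 1.51 without block 3), while cow 19 reached 128 CPM, above all 8. For each of the 3 genes the low-RFI cow left out of the blocks was therefore on the side of the high-RFI cows, and a fit with that cow and parity in place of the block called 0 genes (557 at an unadjusted p under 0.05). With 9 cows and RFI alone the count was also 0 (685 genes), or 0 without block 3 (751 genes), and the log2 fold change of ENSBTAG00000043553 was then -0.15 and -0.24. Leaving out block 1, 2, 3 or 4 of the paired fit gave 1, 4, 2 and 6 calls. ENSBTAG00000038748 lost its call without block 1 or block 3, with adjusted p of 0.114 and 0.118 in edgeR, and ENSBTAG00000043553 without block 1, 2 or 3, with 0.114, 0.0811 and 0.118.

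**Figure D1:**
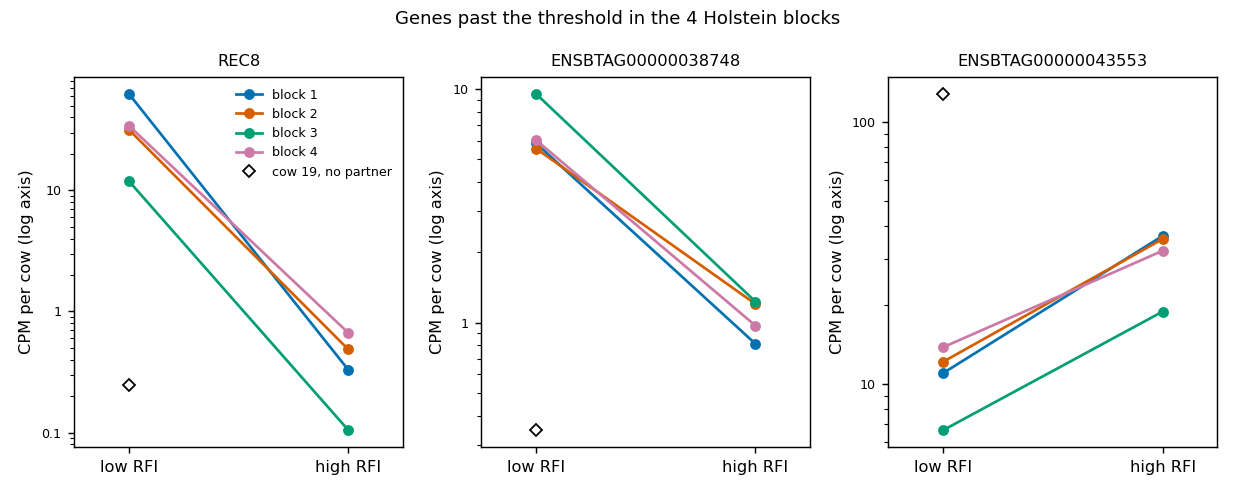
CPM per cow on a log axis for the 3 genes past the threshold, with low-RFI cows on the left, high-RFI cows on the right and a line joining the mates of each block. The open diamond is cow 19, a low-RFI cow without a partner, which lies at 0.248, 0.347 and 128 CPM, on the high-RFI side in each panel.

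The 10 genes with the smallest p in each direction included these 3 and 17 that did not pass, with adjusted p from 0.186 to 0.408. All 20 had the same direction in 4 of 4 blocks, against 14% of all genes tested, and in 16 of the 20 the groups did not overlap, against 3.99%. Since they were ranked on the same differences, these counts describe them and support nothing. Of the 20, 9 carry a symbol. The next lower gene, ENSBTAG00000000170, had 7.08 against 24.8 in block 1, 2.94 against 20.4 in block 2, 6.28 against 18.2 in block 3 and 5.30 against 15.9 in block 4 CPM (log2 fold change -1.91, SE 0.21, adjusted p = 0.186). Among the higher genes ENSBTAG00000032996 followed, at 33.3 to 58.6 CPM in high-RFI cows and 23.3 to 35.5 CPM in their mates (log2 fold change 0.63, SE 0.08, adjusted p = 0.193).

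CEACAM19, a member of the carcinoembryonic antigen family of adhesion proteins, had 2.18 against 5.59 in block 1, 1.10 against 3.20 in block 2, 1.20 against 3.56 in block 3 and 1.47 against 2.89 in block 4 CPM. The low-RFI cow was above its mate each time and the groups did not overlap (log2 fold change -1.36, SE 0.16, adjusted p = 0.193, -1.29 without block 3). FAM102A was at 8.53 ± 1.85 CPM in high-RFI cows and 14.9 ± 3.35 CPM in their mates (SD, n = 4 each), with an adjusted p of 0.343 in edgeR. SLC20A1, a sodium-coupled phosphate transporter, was at 32.5 ± 3.38 CPM in high-RFI cows and 56.3 ± 6.61 CPM in their mates (SD, n = 4 each), with an adjusted p of 0.366 in edgeR. SLC25A34, a mitochondrial carrier, ranged over 2.20 to 4.31 CPM in high-RFI cows and 4.95 to 10.2 CPM in their mates (adjusted p in edgeR 0.366). These genes share a gap between the groups and a small spread of the block differences, yet none passed the threshold over all genes.

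RYR1, the calcium release channel best known from skeletal muscle, led the higher genes with a symbol, at 10.2 against 5.28 in block 1, 12.4 against 6.22 in block 2, 6.31 against 4.35 in block 3 and 11.8 against 6.77 in block 4 CPM (log2 fold change 0.82, SE 0.11, adjusted p = 0.330, 0.92 without block 3). The high-RFI cow exceeded its mate in 4 of 4 blocks, although cow 15 of block 3 lay under the highest low-RFI cow, so the groups overlapped. CKB, the brain-type creatine kinase that buffers ATP, did not overlap, with 16.8 to 25.1 CPM in high-RFI cows and 10.7 to 15.8 CPM in their mates (log2 fold change 0.66, SE 0.10, adjusted p = 0.366, 0.67 without block 3).

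**Figure D2:**
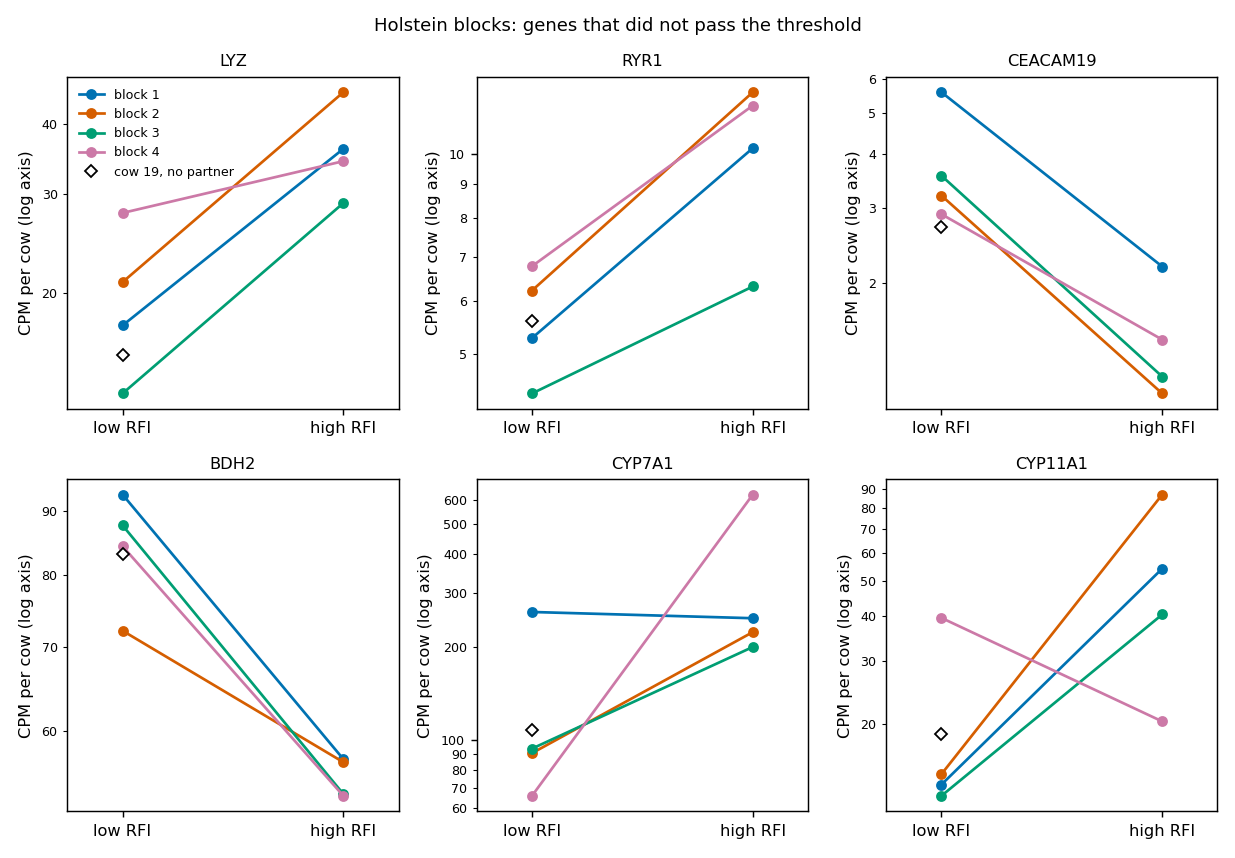
CPM per cow on a log axis for 6 genes that did not pass the threshold, low-RFI cows left and high-RFI cows right, lines joining block mates, open diamond for cow 19. LYZ, RYR1, CEACAM19 and BDH2 move the same way in 4 of 4 blocks, CYP7A1 is level in block 1 and CYP11A1 runs the other way in block 4.

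To describe more of the liver, 61 genes that the study names by symbol as RFI genes of its Holsteins were grouped by function. The study chose them on these same cows and cow 19, so their directions here are not independent evidence. With the 9 listed genes that have no symbol, 70 genes were tested, 40 higher and 30 lower in the high-RFI cows (49.7% of all genes were higher), and 1 passed the threshold, REC8 (background 0.025%). Of the 70, 55 kept 1 direction in 4 of 4 blocks (14% of all genes) and 36 had groups that did not overlap (3.99%). Without block 3, 55 kept 1 direction in 3 of 3 blocks (27% of all genes) and 44 did not overlap (12.6%). Their median absolute log2 fold change was 0.64, against 0.09 over all genes tested. The remaining lists of liver pathways and cell types could not be used: 23 of their 343 symbols, 6.71%, were paired with an identifier, and no list came near the 80% set as the minimum.

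**Figure D3:**
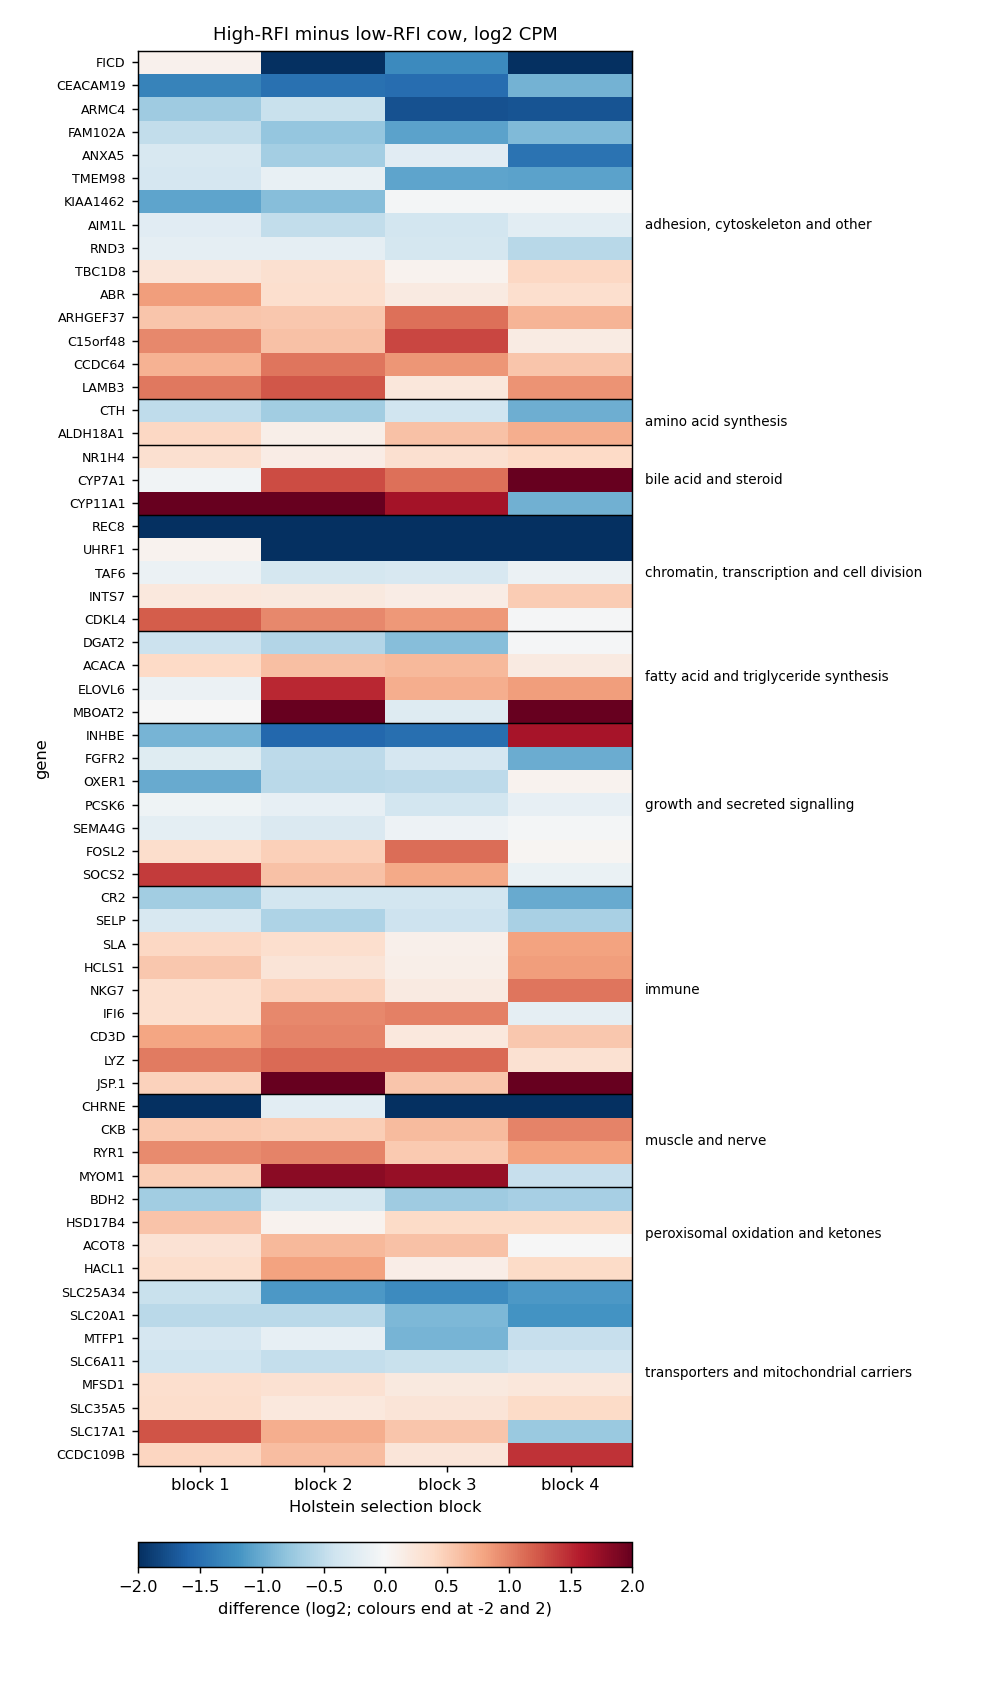
Difference of the high-RFI minus the low-RFI cow in log2 CPM (prior count 2) for 61 genes by functional group, 1 column per block, red for higher and blue for lower in the high-RFI cow, colours ending at -2 and 2. Block 2 has 0 genes against the fitted direction and block 4 has 9, among them CYP11A1, INHBE, SLC17A1 and MYOM1.

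Bile acid and steroid genes were 3, all with positive fold changes, and none passed. CYP7A1, the rate-limiting enzyme of bile acid synthesis, had 248 against 260 in block 1, 224 against 90.6 in block 2, 200 against 93.7 in block 3 and 624 against 65.9 in block 4 CPM. It was level in block 1, where both cows were high, and furthest apart in block 4 (log2 fold change 1.36, SE 0.49, adjusted p = 0.869, 1.47 without block 3). The level of cow 7 in block 4 rests on 1 library, with 1018 CPM on C and 236 CPM on HC, the latter below cows 9 and 2 on HC (252 and 253 CPM). Without block 4 the log2 fold change of CYP7A1 was 0.78, and without block 1 it was 1.86. NR1H4, the bile acid receptor FXR that restrains CYP7A1, was higher in the high-RFI cow in 4 of 4 blocks by a small margin, at 62.5 to 74.4 CPM in high-RFI cows and 53.3 to 59.3 CPM in their mates (log2 fold change 0.30, SE 0.07, adjusted p = 0.821, 0.29 without block 3). The groups did not overlap for NR1H4 and did for CYP7A1. CYP11A1, which cleaves the cholesterol side chain in the first step of steroid synthesis, had 54.2 against 13.6 in block 1, 87.1 against 14.6 in block 2, 40.4 against 12.7 in block 3 and 20.4 against 39.6 in block 4 CPM. In blocks 1 to 3 the high-RFI cow was well above its mate, and in block 4 it was below (log2 fold change 1.40, SE 0.57, adjusted p = 0.869, 1.29 without block 3). Leaving out block 4 gave a log2 fold change of 2.09 and an adjusted p in edgeR of 0.0340.

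Of 4 genes of fatty acid and triglyceride synthesis, 3 had positive and 1 had negative fold changes, and none passed. ACACA, the acetyl-CoA carboxylase that makes malonyl-CoA, had 57.0 against 43.3 in block 1, 71.8 against 47.1 in block 2, 30.0 against 19.2 in block 3 and 53.1 against 46.7 in block 4 CPM (log2 fold change 0.46, SE 0.10, adjusted p = 0.687, 0.40 without block 3). The high-RFI cow exceeded its mate in 4 of 4 blocks, but block 3 was low in both cows and the groups overlapped. DGAT2, which adds the last fatty acid to triglyceride, went the other way in 4 of 4 blocks, at 19.7 to 25.5 CPM in high-RFI cows and 25.9 to 36.1 CPM in their mates (log2 fold change -0.47, SE 0.13, adjusted p = 0.869, -0.34 without block 3), with a difference near 0 in block 4. ELOVL6, the elongase of palmitate, was at 47.0 against 51.0 in block 1, 88.6 against 31.0 in block 2, 44.5 against 26.7 in block 3 and 85.1 against 47.4 in block 4 CPM (adjusted p in edgeR 0.869). MBOAT2, a lysophospholipid acyltransferase, split by block, with 15.1 against 15.2 in block 1, 54.1 against 10.1 in block 2, 9.53 against 11.4 in block 3 and 70.8 against 14.0 in block 4 CPM (adjusted p in edgeR 0.877). Its positive fold rests on blocks 2 and 4, and in blocks 1 and 3 the mates were close.

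Peroxisomal oxidation and ketone metabolism held 4 genes, 3 with positive and 1 with negative fold changes, none past the threshold. HSD17B4, the bifunctional enzyme of peroxisomal beta-oxidation, was at 875 against 586 in block 1, 604 against 574 in block 2, 917 against 702 in block 3 and 858 against 656 in block 4 CPM (log2 fold change 0.36, SE 0.11, adjusted p = 0.869, 0.35 without block 3). HACL1, the lyase of phytanic acid alpha-oxidation, did not overlap, at 332 to 403 CPM in high-RFI cows and 231 to 321 CPM in their mates (adjusted p in edgeR 0.869). ACOT8, a peroxisomal acyl-CoA thioesterase, was level in block 4 and higher in the high-RFI cow elsewhere (log2 fold change 0.38). BDH2, a cytosolic hydroxybutyrate dehydrogenase, was the gene lower in the high-RFI cows, with 57.0 against 92.8 in block 1, 56.7 against 72.2 in block 2, 53.4 against 87.6 in block 3 and 53.2 against 84.3 in block 4 CPM (log2 fold change -0.61, SE 0.09, adjusted p = 0.343, -0.57 without block 3). High-RFI cows stayed within 53.2 and 57.0 CPM and low-RFI cows within 72.2 and 92.8 CPM, and cow 19, at 83.2 CPM, fell among the low-RFI cows.

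Amino acid synthesis was represented by CTH and ALDH18A1. CTH, the cystathionine gamma-lyase that yields cysteine, was lower in the high-RFI cow of each block, at 8.49 ± 1.45 CPM in high-RFI cows and 13.2 ± 0.998 CPM in their mates (SD, n = 4 each) (log2 fold change -0.65, SE 0.12, adjusted p = 0.50, -0.73 without block 3). ALDH18A1, which starts proline synthesis from glutamate, was higher in each, at 24.3 ± 2.78 CPM in high-RFI cows and 17.6 ± 2.38 CPM in their mates (SD, n = 4 each) (log2 fold change 0.46, SE 0.11, adjusted p = 0.807, 0.42 without block 3). Neither gene overlapped between the groups or passed the threshold.

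Transporters and mitochondrial carriers divided 4 to 4, and 7 of the 8 kept 1 direction in 4 of 4 blocks (55 of the 70 listed genes, 14% of all genes). Beside SLC20A1 and SLC25A34, the lower genes were SLC6A11, a GABA transporter, at 96.7 to 136 CPM in high-RFI cows and 126 to 180 CPM in their mates (log2 fold change -0.43, SE 0.07, adjusted p = 0.419, -0.42 without block 3), and MTFP1, a mitochondrial fission protein, with a log2 fold change of -0.48. The higher ones were MFSD1, SLC35A5, CCDC109B, the inhibitory subunit of the mitochondrial calcium uniporter, and SLC17A1, a sodium-phosphate and urate transporter. CCDC109B was at 2.69 against 1.98 in block 1, 3.15 against 2.03 in block 2, 3.12 against 2.64 in block 3 and 5.05 against 1.81 in block 4 CPM, without overlap (adjusted p in edgeR 0.869). SLC17A1 was at 193 against 81.2 in block 1, 209 against 126 in block 2, 180 against 123 in block 3 and 112 against 187 in block 4 CPM, so that its block 4 ran against the other three (adjusted p in edgeR 0.896).

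Growth and secreted signalling held 7 genes, 2 with positive and 5 with negative fold changes, none past the threshold. SOCS2, the feedback inhibitor of growth hormone signalling, was at 43.7 against 16.6 in block 1, 90.0 against 59.6 in block 2, 54.5 against 32.2 in block 3 and 24.9 against 27.2 in block 4 CPM (log2 fold change 0.66, SE 0.22, adjusted p = 0.869, 0.62 without block 3). The high-RFI cow was above its mate in blocks 1 to 3 and slightly below in block 4, and the log2 fold change was 0.41 without block 1 and 0.91 without block 4. FGFR2, a fibroblast growth factor receptor, was lower in the high-RFI cow of every block and did not overlap, at 54.3 to 72.2 CPM in high-RFI cows and 76.4 to 108 CPM in their mates (log2 fold change -0.52, SE 0.13, adjusted p = 0.818, -0.58 without block 3). INHBE, which encodes the liver-secreted inhibin beta E chain, had 22.2 against 42.2 in block 1, 9.49 against 28.1 in block 2, 21.4 against 61.3 in block 3 and 35.9 against 11.5 in block 4 CPM, low in the high-RFI cow in blocks 1 to 3 and high in block 4 (adjusted p in edgeR 0.914). FOSL2, an AP-1 transcription factor, was at 9.79 to 15.1 CPM in high-RFI cows and 6.94 to 9.49 CPM in their mates and had a fitted log2 fold change of 0.12 in the C and 0.93 in the HC libraries. Within a diet the mates were sampled in different periods, so this contrast was not separated from the period. The proprotein convertase PCSK6 and the semaphorin SEMA4G had the smallest fold changes of the group, -0.20 and -0.16, with no overlap between the groups.

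Immune genes numbered 9, of which 7 had positive and 2 had negative fold changes, and none passed. LYZ, the lysozyme of macrophages and neutrophils, led them with 36.2 against 17.5 in block 1, 45.7 against 20.9 in block 2, 28.9 against 13.2 in block 3 and 34.4 against 27.8 in block 4 CPM (log2 fold change 0.90, SE 0.15, adjusted p = 0.377, 0.83 without block 3). High-RFI cows lay above every low-RFI cow, by the narrowest margin in block 4, and without that block the log2 fold change was 1.10 with an adjusted p in edgeR of 0.0340. CD3D, a chain of the T cell receptor complex, had 5.28 against 3.04 in block 1, 4.48 against 2.23 in block 2, 4.58 against 3.96 in block 3 and 5.55 against 3.8 in block 4 CPM (log2 fold change 0.63, SE 0.16, adjusted p = 0.818, 0.78 without block 3). NKG7, a granule protein of natural killer and cytotoxic T cells, had 11 to 15 CPM in high-RFI cows and 7.0 to 10.9 CPM in their mates, and HCLS1, a leukocyte cytoskeletal adaptor, 24.0 to 29.0 CPM in high-RFI cows and 16.2 to 23.6 CPM in their mates. Both were higher in the high-RFI cow of 4 of 4 blocks, with adjusted p of 0.869 each in edgeR. CD3D and NKG7 are 2 of the 15 genes listed as T and natural killer cell markers, and the other 13 were not paired with an identifier. Whether the biopsies differed in their number of lymphocytes or macrophages was not tested. The study's enrichment analysis placed CD3D among core genes of immune pathways lower in high-RFI Holsteins, whereas here it was higher in each block.

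JSP.1, a class I major histocompatibility gene, ran from 6.59 CPM in low-RFI cow 1 to 578 CPM in high-RFI cow 2, with the high-RFI cow above its mate in 4 of 4 blocks (log2 fold change 2.16, SE 0.75, adjusted p = 0.869, 2.81 without block 3), and without block 2, that of cow 2, the log2 fold change was 1.43. Class I genes have near-identical copies that differ between animals, so read pairs may be split among them and the level is uncertain. IFI6, an interferon-induced gene, was at 8.55 against 6.77 in block 1, 9.49 against 4.83 in block 2, 9.37 against 4.64 in block 3 and 6.27 against 7.07 in block 4 CPM (adjusted p in edgeR 0.869). The negative fold changes belonged to CR2, the complement receptor of B cells, at 43.1 to 64.8 CPM in high-RFI cows and 55.5 to 102 CPM in their mates (log2 fold change -0.61, SE 0.12, adjusted p = 0.640, -0.69 without block 3), and SELP, the P-selectin of platelets and endothelium, at 17.6 to 22.6 CPM in high-RFI cows and 23.4 to 34.0 CPM in their mates (log2 fold change -0.50, SE 0.09, adjusted p = 0.408, -0.53 without block 3). Both were lower in the high-RFI cow of 4 of 4 blocks.

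Muscle and nerve genes numbered 4, and RYR1 and CKB are described above. CHRNE, the epsilon subunit of the muscle acetylcholine receptor, had 3.83 against 23.7 in block 1, 3.91 against 4.52 in block 2, 4.48 against 26.4 in block 3 and 4.58 against 21.6 in block 4 CPM (log2 fold change -1.97, SE 0.40, adjusted p = 0.641, -1.75 without block 3). Mates were far apart in blocks 1, 3 and 4 and close in block 2, where low-RFI cow 6 was at the level of the high-RFI cows, and without block 2 the log2 fold change was -2.47 with an adjusted p in edgeR of 0.0117. MYOM1, a sarcomere protein, had 58.2 against 41.2 in block 1, 124 against 35.5 in block 2, 33.0 against 9.79 in block 3 and 49.2 against 67.8 in block 4 CPM (adjusted p in edgeR 0.869).

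UHRF1, which guides maintenance DNA methylation in dividing cells, resembled REC8 in having low-RFI cows well above their mates, but not in block 1. Its CPM was 0.533 against 0.506 in block 1, 0.614 against 12.8 in block 2, 1.49 against 8.0 in block 3 and 0.416 against 5.56 in block 4 (log2 fold change -2.81, SE 0.64, adjusted p = 0.715, -2.99 without block 3). In block 1 both cows were near 0.5 CPM, and cow 19 was at 6.02 CPM. FICD, an enzyme that modifies the endoplasmic reticulum chaperone BiP, showed the same arrangement, with 2.08 against 1.95 in block 1, 0.639 against 12.1 in block 2, 5.05 against 12.4 in block 3 and 1.14 against 7.90 in block 4 CPM and an adjusted p of 0.869 in edgeR. Of the other chromatin and transcription genes, the TFIID subunit TAF6 had a log2 fold change of -0.22 and the Integrator subunit INTS7 one of 0.26, each with the same direction in 4 of 4 blocks and an adjusted p of 0.869 in edgeR.

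The last group, of 15 adhesion, cytoskeletal and other genes, held 6 with positive and 9 with negative fold changes. Of them, 14 had 1 direction in 4 of 4 blocks (55 of the 70 listed genes, 14% of all genes). LAMB3, a laminin chain of basement membranes, was at 169 against 81.6 in block 1, 66.3 against 27.9 in block 2, 123 against 105 in block 3 and 107 against 57.6 in block 4 CPM (log2 fold change 0.86, SE 0.17, adjusted p = 0.579, 1.07 without block 3). Levels differed more between blocks than between mates, and the groups overlapped. ARHGEF37, a guanine nucleotide exchange factor, did not overlap, at 11.9 to 15 CPM in high-RFI cows and 5.88 to 9.34 CPM in their mates (log2 fold change 0.72, SE 0.12, adjusted p = 0.368, 0.60 without block 3). ANXA5, the phosphatidylserine-binding annexin A5, had a log2 fold change of -0.67 that was -0.41 without block 4.

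The 4 blocks were not copies of each other. Over all 11985 genes the SD of the log2 difference between mates was 0.401, 0.404, 0.441 and 0.487 in blocks 1 to 4, and 236, 283, 288 and 445 genes differed more than 2-fold. The median difference was within 0.003 of 0 in each block. Pairwise, the differences of 2 blocks had Pearson correlations across genes from -0.05 to 0.17 over 6 pairs of blocks, given as a description since genes are not independent replicates. Of the 61 genes with a symbol, 0 went against the fitted direction in block 2, 1 in block 3, 5 in block 1 and 9 in block 4. Block 4, with the largest spread, was the block with unequal parity and close RFI values, and the part of either in its differences was not tested. For the same 61 genes, cow 19 lay nearer to the mean of the low-RFI cows in 53 and nearer to that of the high-RFI cows in 8, on a log2 scale, but the study had cow 19 among the low-RFI cows when it chose them. Without block 3 all 61 kept the sign of their fold change. Leaving out 1 block moved the size by over 1.5 times for 15 genes, 4 of them without block 1, 5 without block 2, 3 without block 3 and 8 without block 4. Without block 3 these were INHBE, FOSL2 and MTFP1, at -0.33, 0.29 and -0.32. Without block 4 they included SLC17A1 at 0.84, CCDC109B at 0.44 and NKG7 at 0.33, and without block 2 they included ELOVL6 at 0.49 and MYOM1 at 0.57.

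Fitted on each diet alone, the blocks gave 1 call in the C libraries (0.00834%) and 2 in the HC libraries (0.0167%), beside 575 genes (4.8%) and 432 genes (3.6%) at an unadjusted p under 0.05. REC8 was the call on C, at -5.87 on the log2 scale (SE 0.29, adjusted p = 0.00390 in edgeR), and it passed on HC too, at -6.76 (SE 0.34, adjusted p = 0.00187). Without block 2 its call on C was lost (adjusted p = 0.0505 in edgeR, -5.77) and CHRNE was the call. It was lower in the high-RFI cow in all 8 block-and-diet differences, a pattern of 1 direction that 1.72% of all genes had. ENSBTAG00000038748 passed on HC, at -3.03 (SE 0.24, adjusted p = 0.0231 in edgeR), but not without block 1, 3 or 4, where the adjusted p in edgeR was 0.133, 0.248 and 0.0613. Within HC the mates were sampled in different periods, so the call was not separated from the period. On HC its read pairs were 25, 41, 39 and 16 in the high-RFI cows and 242, 195, 331 and 216 in their mates, blocks 1 to 4. On C they were 7, 6, 8 and 19 against 1, 24, 30 and 24, so the counts were low in all 8 cows and block 1 ran the other way. ENSBTAG00000043553 had 1095, 566, 420 and 757 read pairs on HC against 194, 341, 157 and 165, and 351, 829, 300 and 403 on C against 262, 137, 95 and 383.

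The difference between the diets in the effect of RFI, tested with the cow in the model, gave 0 calls in edgeR (304 genes at an unadjusted p under 0.05, 2.54%) and 0 in DESeq2 (127 genes). Without block 3 there were 0 as well (351 genes). For the 3 called genes its log2 value was -0.82 for REC8, -2.18 for ENSBTAG00000038748 and 0.51 for ENSBTAG00000043553, each with an adjusted p of 1.00 in edgeR. Block mates had opposite diet orders and no period term was fitted. Neither this difference nor the contrast of the C with the HC fits was therefore separated from the period. Of the 61 genes with a symbol, 29 had the same direction in all 8 block-and-diet differences, with 13 higher (0.809% of all genes) and 16 lower (0.909%). Across all genes the C and HC differences of a block correlated at r = 0.54, 0.49, 0.22 and 0.52 in blocks 1 to 4, a description in which both differences come from the same pair of cows. The lowest value is that of block 3, with the C library labelled cow 15, and without it 1 gene was called on each diet.

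**Figure D4:**
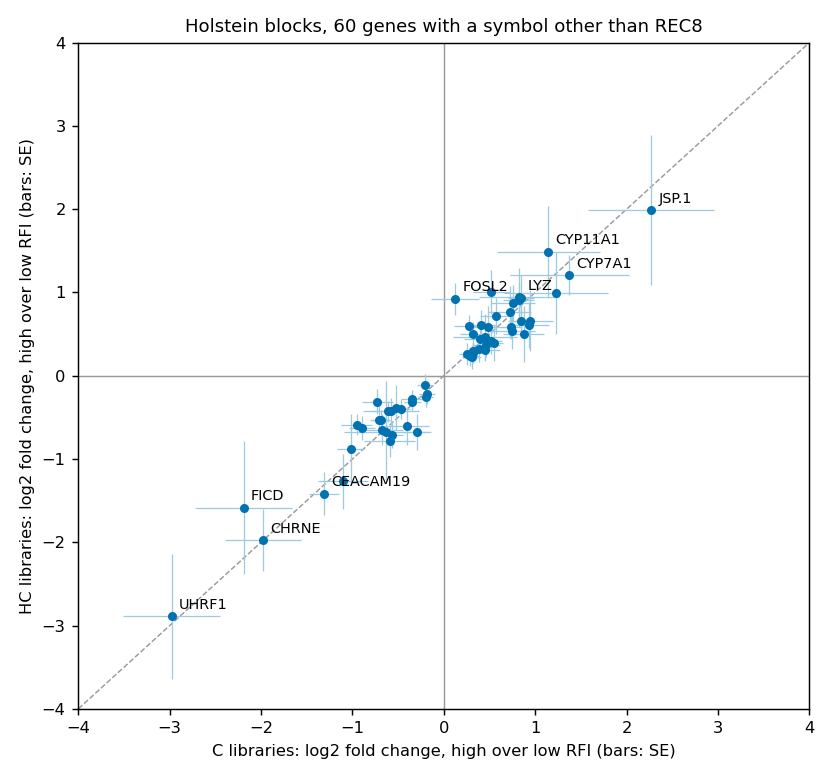
Fitted log2 fold change of high over low RFI in the C libraries (x axis) and the HC libraries (y axis) for the 60 genes with a symbol other than REC8, bars showing the SE and the dashed line equality. Points lie near the line, and FOSL2 is at 0.12 on C and 0.93 on HC. Within each diet the mates were sampled in different periods, so the axes were not separated from the period.

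The 5 Jersey blocks, fitted the same way, offered cows that had no part in choosing the Holstein genes. None of 11942 genes passed there in edgeR (0%), beside 440 (3.68%) at an unadjusted p under 0.05. The labels were in doubt there too, for cow 14 of block 3, and for cows 10 and 17 of blocks 1 and 5, whose HC libraries were alike in 58 of 58 on-off genes. Without those 3 blocks 0 genes passed and 317 were at an unadjusted p under 0.05. Of 69 listed Holstein genes tested in both breeds, 34 had the same direction in the Jerseys, 49.3%, beside 51.2% of the 11827 genes tested in both, and without all doubted blocks 33, 47.8%, beside 47.9%. Where the Holstein fold change was positive the median Jersey log2 fold change was -0.03, and where it was negative the median was also -0.03.

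By group, 8 of the 9 immune genes had a negative Jersey fold change, where 48.8% of all Jersey genes were positive, and 8 went against their Holstein direction. LYZ was at -0.27 in the Jerseys and CD3D at -0.36, lower in the high-RFI cow in 4 and 5 of 5 blocks. Of these blocks, 3 have doubted labels, and in Jersey blocks 2 and 4 alone LYZ was at -0.43 and 0.17, lower in 1 of 2, and CD3D at -1.07 and -0.28. Fitted on those 2 blocks, 8 of the 9 immune genes were negative, where 49.4% of all Jersey genes were positive. Transporters and carriers had the same direction as in the Holsteins in 7 of 8, and in 6 of 8 without the doubted blocks of both breeds. Elsewhere it was the same in 7 of 15 adhesion, 2 of 7 growth, 3 of 4 peroxisomal and 3 of 4 fatty acid genes, beside 51.2% of all genes. Genes of a group were measured in the same biopsies, so these counts are not independent and the groups were not tested. Over all 5 blocks and over blocks 2 and 4, BDH2 was at 0.29 and 0.69, CYP7A1 at -0.08 and -0.17, and UHRF1 at 0.90 and 1.36. For single genes the difference between the breeds gave 0 calls of 12100 in edgeR (0%, with 648 or 5.36% at an unadjusted p under 0.05), and 22 in DESeq2. Without Holstein block 3 and Jersey blocks 1, 3 and 5, edgeR called 1, a gene without a symbol, ENSBTAG00000001595. Its Holstein minus Jersey value was 5.80 (adjusted p = 0.00497 in edgeR), and over all blocks its adjusted p was 0.706. It was also called in the Holstein fit without block 3 (log2 fold change 2.93, adjusted p = 0.0185 in edgeR). Among genes with a symbol the lowest adjusted p for the difference over all blocks were 0.0586 for REC8 and 0.386 for LYZ in edgeR.

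**Figure D5:**
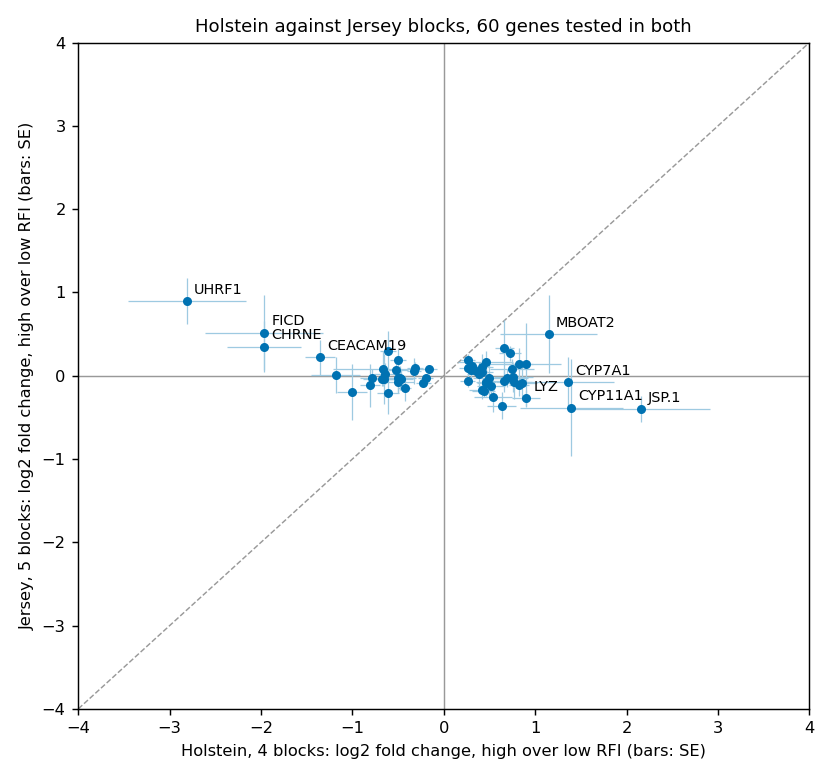
Fitted log2 fold change of high over low RFI in the 4 Holstein blocks (x axis) and the 5 Jersey blocks (y axis) for the 60 genes with a symbol tested in both breeds, bars showing the SE and the dashed line equality. Jersey values stay close to 0 across the Holstein range, and UHRF1 lies at -2.81 in the Holsteins and 0.90 in the Jerseys.

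REC8 was too low in the Jerseys to pass the filter. There 8 of 10 cows had 3 to 20 read pairs, and high-RFI cows 18 and 13, of blocks 3 and 5, had 538 and 531. Over all 19 cows of the study, 6 had 451 read pairs or more and 13 had 24 or fewer, with no cow between. The 6 were the 4 paired low-RFI Holsteins and these 2 high-RFI Jerseys. The 2 other called genes were tested in the Jerseys, with adjusted p of 0.999 each in edgeR. ENSBTAG00000043553 was at -1.27, lower in the high-RFI cow in 4 of 5 blocks, against its Holstein direction. In Jersey blocks 2 and 4 alone it was at 1.08 and -1.44. ENSBTAG00000038748 was at 0.15, higher in 2 of 5 blocks, and at -0.80 and 3.66 in blocks 2 and 4.

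The 19 genes of the study's Jersey list gave 17 that were tested in the Holstein blocks, 10 with positive and 7 with negative fold changes and 0 called (2 at an unadjusted p under 0.05, where all genes had 5.6%). Those 2 were GIMAP4 and GIMAP8, GTPases of lymphocytes, with Holstein log2 fold changes of 1.64 (SE 0.51) and 0.95 (SE 0.27), or 1.79 and 0.70 without block 3. GIMAP4 was far apart in block 1 (96.8 against 7.25 CPM) and less so elsewhere, and GIMAP8 was level in block 2 (18.4 against 18.2 CPM). The Jersey log2 fold changes were -1.96 and -1.34 over 5 blocks, and -0.70 and -1.18 in blocks 2 and 4. Their adjusted p was 0.869 each in the Holstein blocks and 0.706 and 0.678 for the difference between the breeds in edgeR. FDXR, which passes electrons to CYP11A1 and other mitochondrial P450 enzymes, and MCTP2 had the smallest p in the Jersey blocks and Holstein log2 fold changes of -0.06 and -0.01.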

How the data were processed

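Liver RNA was sequenced with the Illumina TruSeq Stranded mRNA kit. The authors trimmed adapters, aligned reads with STAR 2.3.0 to UMD3.1 (Ensembl release 82, at most 5 mismatches) and deposited raw HTSeq-count read-pair counts per gene. The HTSeq version and strand setting are not given in the sources used here, so overlapping and antisense genes cannot be told apart.

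The C and HC counts of each cow were summed. Genes with at least 1 CPM in 4 of 8 cows were tested with edgeR 4.0.16 (TMM, quasi-likelihood test, block and RFI in the model) in R 4.3.3, two-sided, Benjamini-Hochberg adjusted p under 0.05. The diet difference was tested with the cow and no period term in the model, and the breed difference as an interaction over 9 within-breed pairs from 5 blocks. Log2 CPM used a prior count of 2. DESeq2 1.42.0, limma 3.58.1, other terms, filters and scalings, and each block left out were alternatives; the fits with cow 19 and RFI alone, the breed fit without Holstein block 3 and Jersey blocks 1, 3 and 5, and the Jersey values in blocks 2 and 4, were chosen after seeing the data. The procedure was tested on simulated data.

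The comparison, gene lists and groups were chosen with earlier results of these data known. Since fewer than 10 genes passed, the genes named were those that passed and the 10 with the smallest p in each direction, with the genes the study names for its Holsteins; most genes without a symbol were only counted. Symbols come from the study's gene lists, since the reference table holds no Ensembl IDs; 77 symbols were paired. Networks and pathways were not analysed here.

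The blocks come from the study's animal table, whose RFI group column is worded opposite to the directions used here. Deviations of block mates from the group means correlated with r of -0.10, 0.05, -0.03 and -0.15 in blocks 1 to 4 (mean -0.06). Because deviations cancel within each group, the other pairs gave no separate baseline. In the 4-block fit the p-values rest on how far the differences between block mates varied among the blocks of these 8 cows. This spread was moderated with that of all genes. Nothing says how reads shared by near-identical genes were split.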

Additional observations from a re-analysis of the deposited data

Results flagged for a closer look

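Of 126 groups of 4 cows examined (63 genes, each in the high-RFI and low-RFI Holsteins), 7 held a cow far from the other three by Dixon's criterion, 5 high and 2 low, where chance flags about 1 in 20 groups. CYP7A1 was flagged in both groups. High-RFI cow 7 had 624 CPM, with the nearest of its group at 248 CPM, but this rests on its C library (1018 CPM), since on HC it was at 236 CPM, below cows 9 and 2 (252 and 253 CPM). Low-RFI cow 11 had 260 CPM, with the nearest at 93.7 CPM. Low-RFI cow 1, the mate of cow 7, was flagged for CYP11A1 at 39.6 CPM (nearest 14.6 CPM) and for INTS7 at 286 CPM (nearest 316 CPM). Low-RFI cow 16 was flagged for ACACA at 19.2 CPM (nearest 43.3 CPM) and for ENSBTAG00000038748 at 9.53 CPM (nearest 6.04 CPM), the latter from its HC library (18.7 CPM, against 1.5 CPM on C). JSP.1 was flagged in high-RFI cow 2 at 578 CPM, with the nearest at 82.6 CPM. No difference between diets or breeds in the effect of RFI passed its test in the main edgeR fits.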

How the results depend on the processing

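For the 4 blocks (3 calls), DESeq2 gave 46 calls of 11985 genes (24 higher, 22 lower), of which 3 are those of edgeR. Of the 46, 20 are in the study's Holstein list, to which 70 of the 11985 genes belong. The study made that list with DESeq2 on these cows and cow 19, so the overlap is not independent evidence. Parity in place of the block gave 6, and limma-voom on 16 libraries with the cow as a random effect 13, which shared only REC8 with the 3, since ENSBTAG00000038748 and ENSBTAG00000043553 had adjusted p of 0.0624 and 0.0973 there. Adding cow 19 gave 0, with parity, with RFI alone, and with RFI alone without block 3. In the last 2 of these ENSBTAG00000043553 reversed, to -0.15 and -0.24. Leaving out each block gave 1 to 6 calls, and without the replicate block there were 2, since ENSBTAG00000043553 had an adjusted p of 0.269 in edgeR. On C (1 call), DESeq2 gave 32, the fit with no replicate block 2 (REC8 and ARHGEF37), and leaving out each block 1, which was CHRNE and not REC8 without block 2. On HC (2 calls) these were 15, 2 and 1 to 2. The diet difference stayed at 0 calls in all 9 alternatives run, the fit without the cow block included. For the breed difference (0 calls), no filter and no replicate block gave 1 each (REC8), DESeq2 22 and leaving out Holstein blocks 0 to 2. Leaving out Jersey blocks 1 and 5, or Holstein block 3 and Jersey blocks 1, 3 and 5, gave 1 each, ENSBTAG00000001595. The cause of these shifts was not tested. DESeq2's size factors and robust dispersion kept each of the 5 counts. For single genes, 63 genes under 14 alternatives gave 882 values, of which 835 kept direction and side of the threshold, 30 newly passed, 15 no longer passed and 2 reversed. All but 3 of the 63 had not passed in the main fit, so failing again in the same direction counted as kept. The 15 lost calls and the 2 reversals all fell on the 3 called genes. REC8 passed in 11 of its 14 alternatives. Adding cow 19 and RFI alone, and leaving out the doubted blocks of both breeds or of the Jerseys, were chosen after seeing the data. With 4 blocks the residual degrees of freedom are 3.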

Other observations

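The study's Holstein list also held 9 genes without a symbol, of which 6 had positive and 3 had negative fold changes, and 8 kept 1 direction in 4 of 4 blocks (14% of all genes tested). The lowest adjusted p among them was 0.186 in edgeR, that of ENSBTAG00000000170. The study chose them on these cows, so their directions are not independent evidence.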
